A study of Mus musculus with 7 samples.

Results

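The 7 keratin genes Krt8, Krt18, Krt7, Krt19, Krt4, Krt14 and Krt5 were followed across single cells of mammary tumours and of blood from PyMT mice, a strain whose mammary glands express the polyoma middle T oncogene and form tumours. They were taken by symbol and were 7 of the 11753 genes listed in experiment (ii), which had 16 keratin rows in all. In experiment (i), 6 of them were among 12145 genes listed in library 1, where Krt5 had no row, and 6 among 8868 genes in library 2, where Krt4 had no row. Experiment (ii) had 4 libraries of wells sorted into up to 4 populations. The wells named BEpos and BEneg here were labelled as circulating tumour cells positive and negative for E-cadherin (Ecad), which joins epithelial cells and is the product of Cdh1. Those named TEneg and TEpos were labelled as Ecad-negative and Ecad-positive cells of the solid tumour. Experiment (i) had 3 libraries of 96 wells each, all labelled as E-cadherin positive tumour cells. All cells came from PyMT mice, and the labels give no age, treatment or other allele and do not tie libraries to animals. The p-values therefore rest on the spread between libraries, which may be technical, and the edgeR fits shared that spread between genes.

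Keratins are the intermediate filament proteins of epithelial cells, and every filament is built from a type II chain paired with a type I chain. In the mammary gland, luminal cells that line the ducts carry the type II keratins Krt8 and Krt7 with the type I keratins Krt18 and Krt19, while the outer basal and myoepithelial layer carries the type II keratin Krt5 with the type I keratin Krt14. Krt4 is a type II keratin of moist stratified linings such as the oesophagus, and loss of keratins with gain of the filament protein vimentin is the classic sign of an epithelial cell that turns mesenchymal.

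Genes of the type II chains stood together on chromosome 15, where Krt18 was the exception among type I genes (GENCODE M21 annotation of GRCm38, the mm10 build). Krt8 lay at chr15:101996698-102004482 on the minus strand and its partner Krt18 at chr15:102028180-102032027 on the plus strand, 23698 bases away. Krt7 lay at chr15:101411043-101430313 on the plus strand, with Krt5 at chr15:101707070-101712898 and Krt4 at chr15:101918535-101924735 on the minus strand. The type I genes Krt19, at chr11:100140810-100148665, and Krt14, at chr11:100203162-100207548, were both on the minus strand. RefSeq promoter windows (GRCm38.p6) were at hand for 5 of the 7 genes, and the 250 bases before the start are shown for the luminal pair and for the basal gene Krt5, 3 of the 4 members called in a comparison. Capitals mark CACCTG, the E-box that repressors of the Snail and Zeb families bind, or CAGGTG, its reverse complement.
Krt8: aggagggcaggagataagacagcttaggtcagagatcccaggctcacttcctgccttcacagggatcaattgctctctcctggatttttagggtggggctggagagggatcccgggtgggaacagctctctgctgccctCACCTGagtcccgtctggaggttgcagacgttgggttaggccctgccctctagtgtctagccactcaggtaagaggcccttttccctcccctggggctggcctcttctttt
Krt18: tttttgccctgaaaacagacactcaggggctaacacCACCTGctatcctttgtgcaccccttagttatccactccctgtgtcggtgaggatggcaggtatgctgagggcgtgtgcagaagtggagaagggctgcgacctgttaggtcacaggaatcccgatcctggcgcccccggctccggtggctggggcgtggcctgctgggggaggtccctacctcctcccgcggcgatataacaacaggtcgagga
Krt5: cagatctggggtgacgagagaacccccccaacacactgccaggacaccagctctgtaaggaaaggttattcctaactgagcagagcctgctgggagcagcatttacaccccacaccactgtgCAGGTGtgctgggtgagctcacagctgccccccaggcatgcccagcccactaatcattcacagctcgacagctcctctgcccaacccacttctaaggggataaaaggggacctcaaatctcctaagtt
The windows are chr15:102004343-102004592 (minus strand) for Krt8, chr15:102027966-102028215 (plus strand) for Krt18 and chr15:101712906-101713155 (minus strand) for Krt5. The RefSeq start lay 140 bases inside the GENCODE gene for Krt8 and 36 bases inside it for Krt18. CACCTG, searched on both strands, stood at −111 from the RefSeq start in Krt8, at −214 in Krt18 and, as CAGGTG, at −128 in Krt5. It was found also in the window of Krt7, was not in that of Krt14, and was in 17.29% of 32536 promoter windows of the same length. Krt7 and Krt14 have RefSeq starts 1360 and 1518 bases inside the GENCODE gene, and their windows are not shown.

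Wells with at least 500 transcripts were used, 220 of 312 in experiment (ii): 20 BEpos wells, all of library 1, 60 BEneg, 69 TEneg and 71 TEpos wells. Summed transcripts were 75125 in BEpos, 11172 to 25379 per library in BEneg, 17189 to 109892 in TEneg and 27416 to 71894 in TEpos. A single TEneg well of library 2 held 61227 transcripts, 55.7% of that library's TEneg sum. The blood wells carried leukocyte genes: the list summed to 1.18% of transcripts in BEpos and to 1.08 to 2.003% in BEneg libraries, against 0.0219 to 0.121% in TEneg and 0.0293 to 0.0995% in TEpos libraries, and 9 of its 10 genes had a row. Epcam had 3 transcripts in all of BEpos, and Cdh1 had 1, although this population was sorted as E-cadherin positive. Cdh1 was also present in the populations sorted as negative. It averaged 3.88 per 10000 transcripts in BEneg and 4.16 in TEneg, against 5.90 in TEpos. TEneg was above TEpos in 2 of 4 libraries for Cdh1, and these groups overlapped. Each library had 72 sorted wells of the BEneg, TEneg and TEpos populations, 24 of each. Values are molecule estimates from 3′ tags, given per 10000 transcripts, so levels of different genes needed no length correction.

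Krt8 and Krt18 had the highest mean levels of the 7 keratins in the tumour wells, and both were lowest in blood wells. Krt8, the type II chain of simple epithelia, had 0.133 transcripts per 10000 in BEpos, 0.816, 1.58, 2.53 and 0.897 in BEneg libraries 1 to 4, 7.02, 6.22, 7.72 and 2.33 in TEneg libraries and 11.97, 6.61, 14.3 and 8.88 in TEpos libraries. TEneg lay below TEpos in all 4 libraries, although the groups overlapped, because TEneg of library 3 was above TEpos of library 2. Krt18, its type I partner, had 0.133 transcripts per 10000 in BEpos, 0.816, 0.790, 1.69 and 1.79 in BEneg, 5.93, 6.10, 7.72 and 2.33 in TEneg and 16.96, 6.46, 14.7 and 7.71 in TEpos libraries. TEneg was again below TEpos in 4 of 4 libraries with overlapping groups, and every BEneg library was below every TEneg library.

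**Figure D1:**
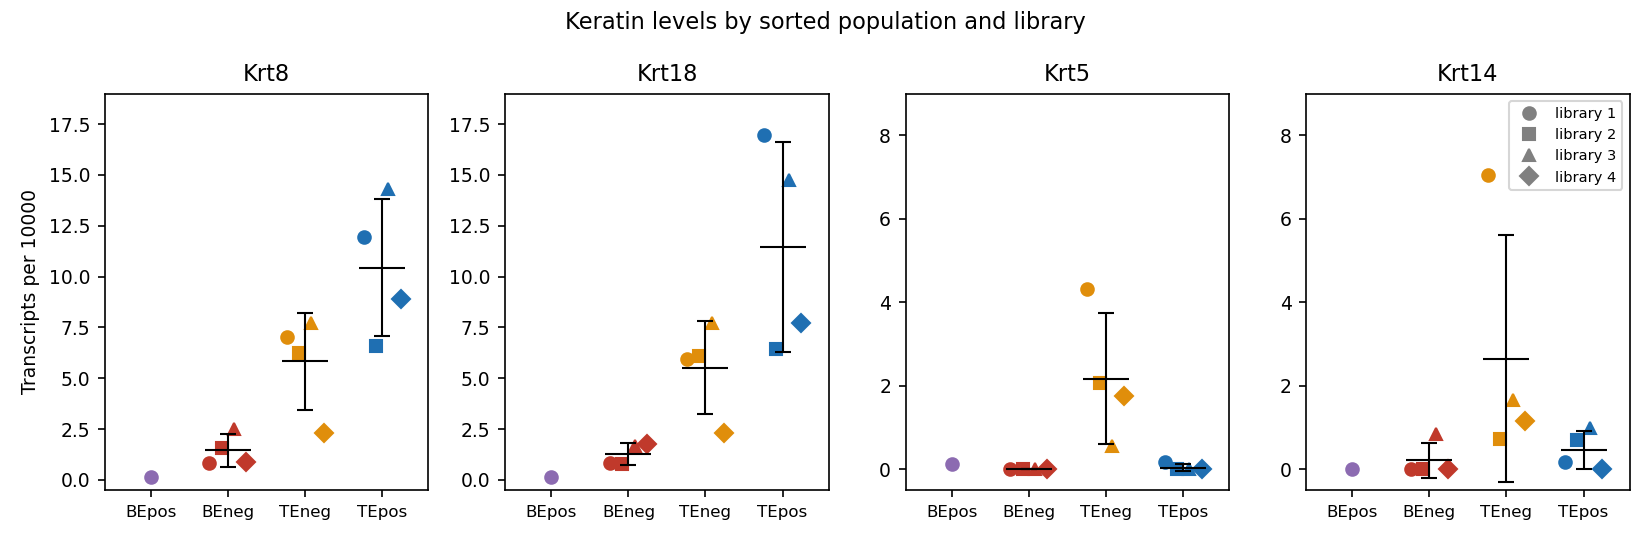
Transcripts per 10000 of Krt8, Krt18, Krt5 and Krt14 (vertical axes, 1 panel per gene) in BEpos, BEneg, TEneg and TEpos wells; each marker is a library, and bars give the mean ± SD of 4 libraries. Krt8 and Krt18 were highest in TEpos, while Krt5 was at 0.550 (1 transcript, library 3) or more in every TEneg library and at 0.168 or 0 in TEpos libraries.

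In TEneg against TEpos, mean levels were 5.83 ± 2.41 and 10.4 ± 3.38 per 10000 for Krt8 and 5.52 ± 2.27 and 11.5 ± 5.16 for Krt18 (SD, n = 4 libraries each). edgeR's quasi-likelihood test over 490 genes gave log2 fold changes of −0.60 for Krt8 (SE 0.27, adjusted p = 0.215) and −0.78 for Krt18 (SE 0.28, adjusted p = 0.102), so 0 of these 2 members were called lower, where 1.63% of all genes tested were called lower and 6.33% were called in either direction. Without a filter on low counts, Krt18 was called at −1.13 (adjusted p = 0.0270) and Krt8 was not (−0.96, adjusted p = 0.136). Leaving out library 2 gave −1.23 for Krt18 (adjusted p = 0.0211), and leaving out the large TEneg well gave −0.82 (adjusted p = 0.0474). Single wells carried much of the TEpos levels in libraries 3 and 4. In library 3, a TEpos well of 2304 transcripts held 22 of the 43 Krt8 and 26 of the 44 Krt18 transcripts, and without it the library's levels were 7.598 and 6.50 per 10000. In library 4, a TEpos well held 12 of 24 Krt8 transcripts.

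In BEneg against TEneg, both luminal chains fell. Krt8 averaged 1.46 ± 0.79 per 10000 in BEneg and 5.83 ± 2.41 in TEneg (SD, n = 4 each), a log2 fold change of −1.95 (edgeR, SE 0.44, adjusted p = 0.000566). Krt18 averaged 1.27 ± 0.54 in BEneg and 5.52 ± 2.27 in TEneg, a change of −2.21 (edgeR, SE 0.48, adjusted p = 0.000427). Each was lower in 4 of 4 libraries, and the groups overlapped for Krt8 but not for Krt18. Both members tested were thus called lower, beside 17.1% of all genes tested. In BEneg against TEpos, Krt8 fell by 2.55 (edgeR, SE 0.41, adjusted p = 7.09e-06) and Krt18 fell by 2.99 (SE 0.44, adjusted p = 2.38e-06) on the log2 scale, beside 21% of all genes called lower, and neither pair of groups overlapped. These comparisons share the BEneg samples. Calls under this scaling split into 117 higher and 84 lower in BEneg against TEneg, but into 99 and 187 when scaled by total transcripts alone, which moved the median of all genes from near 0 to −0.49 and Krt8 to −2.36 and Krt18 to −2.62. Leaving out any library kept both genes called in both comparisons. In the same wells 8 of 8 tested leukocyte genes were higher in BEneg than in TEneg, beside 23.9% of all genes, with a median log2 fold change of 4.76 against −0.05 over all genes tested. Fewer keratin-expressing cells and less keratin RNA per cell cannot be told apart from sums over wells.

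Wells of BEneg that held a luminal keratin held it as a lone molecule. Krt8 was found in 10 of 60 BEneg wells and Krt18 in 8, never with more than 1 transcript, and a single well had both. In TEneg wells Krt8 was found in 36 of 69, with 2 or more transcripts in 16, and in TEpos wells in 45 of 71, with 2 or more in 33. For Krt18 these counts were 44 and 17 in TEneg and 50 and 34 in TEpos wells. All 60 BEneg wells had transcripts of S100a9, a calcium-binding protein abundant in neutrophils. The median was 32 in the 17 BEneg wells with Krt8 or Krt18 and 29 in the 43 without either keratin. Their leukocyte lists summed to a median of 1.90% and 1.77% of transcripts. S100a9 was also found, at a median of 2 transcripts, in 58 of 69 TEneg and 62 of 71 TEpos wells. The part of molecules carried between wells in the lone keratin transcripts was not tested. Vim, which encodes vimentin, was found in 13 of the 17 keratin-positive BEneg wells and in 31 of the 43 others. Cdh1 was found in 8 of the 17 and 12 of the 43, and Epcam in 4 of the 17 and 8 of the 43. These differences between wells were not tested.

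BEpos wells, sorted as E-cadherin positive, held 1 transcript each of Krt8, Krt18 and Krt5, in 3 different wells, among 75125. At 0.133 per 10000 (exact Poisson 95% interval 0.00337 to 0.742, counting error only), Krt8 and Krt18 were below their levels in tumour wells of the same library. For Krt5, TEpos of library 1 also had 1 transcript, a level of 0.168. That was 1.26 times the BEpos level, with an interval of 0.0161 to 98.9 that spans equality. TEneg of library 1 had 16 Krt5 transcripts, a level 32.3 times (interval 5.01 to 1353) that of BEpos. Krt8 had 26 transcripts in TEneg and 71 in TEpos of library 1, levels 52.4 times (interval 8.62 to 2150) and 89.5 times (15.6 to 3584) that of BEpos. The BEneg level of library 1 was 6.12 times that of BEpos, with an interval of 0.319 to 361 that spans equality. Krt7, Krt19, Krt4 and Krt14 had no transcript in BEpos, which allows up to 0.491 transcripts per 10000 (exact Poisson 95% bound) and sets no limit on the share of cells that express them. BEpos was present in library 1 alone and there is no replicate check.

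The partners Krt8 and Krt18 were found together in most keratin-positive TEpos wells. Both were present in 0 of 20 BEpos wells, in 0, 0, 0 and 7.69% of BEneg wells of libraries 1 to 4, in 52.6, 45.5, 35.7 and 7.14% of TEneg wells and in 66.7, 57.9, 50 and 27.8% of TEpos wells. TEneg was below TEpos in each library, and both were lowest in library 4. After wells were thinned to 500 transcripts, so that depth was equal, the shares were 1.06 ± 2.13% in BEneg, 6.02 ± 4.03% in TEneg and 13 ± 6.80% in TEpos (SD, n = 4 libraries). The difference TEneg minus TEpos was −6.98 percentage points, lower in 4 of 4 libraries (exact sign-flip permutation test, two-sided, p = 0.13, the smallest that 4 libraries allow, and 0.188 after Benjamini-Hochberg adjustment over 3 comparisons). BEneg minus TEneg was −4.96 points, lower in 3 of 4 libraries (exact p = 0.25), and BEneg minus TEpos was −11.9 points, lower in 4 of 4 (exact p = 0.13). The product of the single shares after thinning averaged 6.27% in TEneg and 11.1% in TEpos, close to the shares of wells with both.

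**Figure D2:**
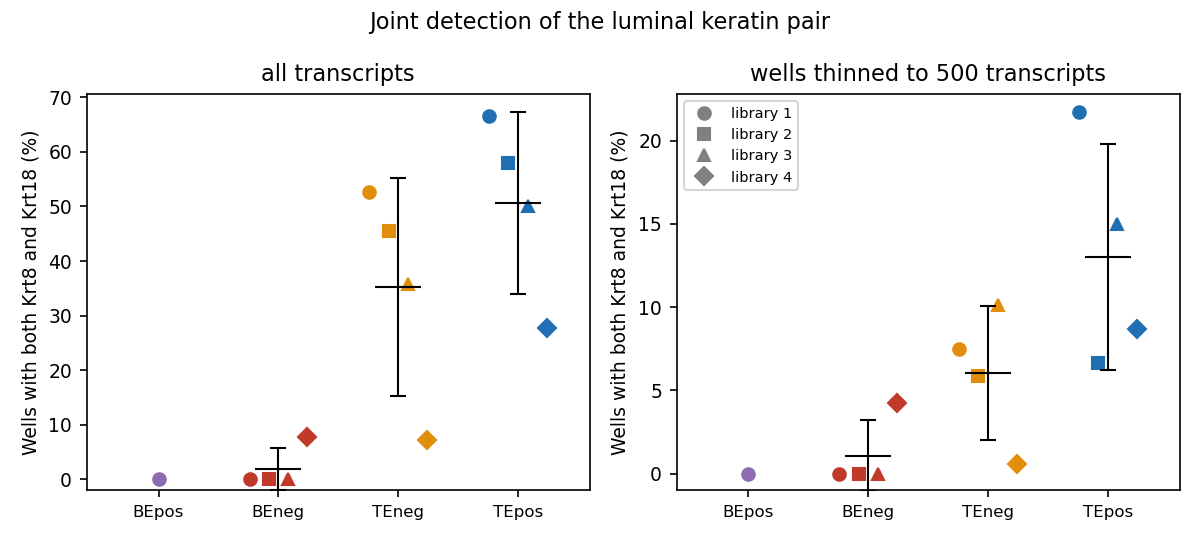
Percent of wells with both Krt8 and Krt18 in BEpos, BEneg, TEneg and TEpos, with all transcripts (left) and with wells thinned to 500 transcripts (right); each marker is a library, and bars give mean ± SD of 4 libraries. Shares were highest in TEpos, at 50.6% with all transcripts and 13% after thinning.

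Molecules of the partners came in near equal number. Krt8 per Krt18 was 1.06 over all TEneg wells (113 and 107 transcripts, exact interval 0.804 to 1.39) and 0.873 over all TEpos wells (186 and 213, interval 0.713 to 1.07). In BEneg it was 1.25 with 10 and 8 transcripts (interval 0.444 to 3.64). Of the 12 sums per library and population, TEpos of library 1 alone had an interval below equality, at 0.703 (0.511 to 0.962). Summed over the 7 genes, type II per type I transcripts were 1.13 in TEneg and 0.892 in TEpos, but 0.903 in TEneg without the large well, where Krt8 per Krt18 was 0.955 (0.667 to 1.37). Intervals cover counting error only.

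The other luminal keratins were sparse and were called in no main comparison. Krt7, the further type II chain of ducts and glands, had 0.816, 0.395, 0 and 0 transcripts per 10000 in BEneg libraries 1 to 4, 0.807, 1.47, 1.10 and 0 in TEneg and 2.36, 1.26, 0.666 and 0.365 in TEpos libraries. TEneg was above TEpos in libraries 2 and 3 and below it in libraries 1 and 4, and BEneg overlapped both. Without a filter on low counts, which 5 of the 7 genes failed, the log2 fold change was −0.53 in TEneg against TEpos (edgeR over 11431 genes, SE 0.58, adjusted p = 1) and −1.75 in BEneg against TEpos (SE 0.86, adjusted p = 0.317). Krt19, the small type I chain without a tail, had 0, 0, 1.69 and 0 per 10000 in BEneg, 0.808, 0.365, 1.10 and 0.583 in TEneg and 1.85, 0.559, 0 and 1.10 in TEpos libraries. All 3 groups overlapped, and TEneg against TEpos gave −0.66 (SE 0.67, adjusted p = 1). BEneg against TEpos gave −1.79 for Krt19 (SE 0.98, adjusted p = 0.426), and library 3 held both BEneg transcripts, so that without it BEneg was at 0 and no fold is given. Krt19 was called lower in this comparison in 1 of 15 alternatives. Krt4 had 1 transcript in all, in TEpos of library 1. Krt23, a type I keratin of the wider family, had 1 transcript in BEneg, 19 in TEneg and 25 in TEpos, with −0.62 in TEneg against TEpos (SE 0.58, adjusted p = 1) and −3.11 in BEneg against TEpos (SE 1.06, adjusted p = 0.0614). The BEneg difference from TEpos was called in 3 of 15 alternatives, with adjusted p down to 0.0314.

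Krt5 was higher in TEneg wells than in TEpos wells in every library. This gene, the type II chain of basal cells, had 4.32, 2.06, 0.550 and 1.75 transcripts per 10000 in TEneg libraries 1 to 4, against 0.168, 0, 0 and 0 in TEpos libraries, which is 43 transcripts against 1. Every TEneg library was above every TEpos library, but TEneg of library 3 held 1 transcript, in 1 well. TEneg of library 4 held 3, in 2 wells. In the fit without a filter, Krt5 rose by a log2 fold change of 4.72 (edgeR, SE 0.86, adjusted p = 2.36e-05), beside 0.455% of 11431 genes called higher, so 1 of the 7 genes was called higher and Krt18 was called lower, beside 0.411%. The fit without a filter also counts very sparse genes. With a minimum of 20 transcripts over all sums, chosen after seeing the data, 63 of 3948 genes were called higher and 51 lower. The pooled Krt5 ratio was 44.5 with a counting interval of 7.58 to 1800. Of the 43 Krt5 transcripts, 18 came from the large TEneg well, and without it the change was 4.35 (adjusted p = 0.000304). Means of log values over wells did not call it (0.54, limma, adjusted p = 0.331).

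Krt14, the type I partner, had 7.05, 0.730, 1.65 and 1.17 transcripts per 10000 in TEneg libraries, against 0.168, 0.700, 0.997 and 0 in TEpos libraries. TEneg was higher in 4 of 4 libraries, but library 1 held 26 of the 39 TEneg transcripts and the groups overlapped. The log2 fold change was 1.97 (edgeR, SE 0.61, adjusted p = 0.120) in the fit without a filter. It was called in 5 of 15 alternatives, with adjusted p from 0.0207 to 1 over all of them, and leaving out library 1 gave 0.55 (adjusted p = 1), while leaving out library 2 gave 3.06 (adjusted p = 0.0207). Krt17, another type I keratin of basal cells, had 14 transcripts in TEneg, 11 of them in library 1, and 5 in TEpos (1.31, SE 0.88, adjusted p = 1). Krt14 and Krt17 have closely similar sequences, as do Krt5 and the Krt6 genes, and Krt8 and Krt18 have processed copies elsewhere in the genome, so reads may have been split between copies.

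In blood the basal pair was near absent. Krt5 had no transcript in 60 BEneg wells, against 43 in TEneg. With 3 transcripts over BEneg taken as the floor and the TEneg count taken as exact, it was 5.73-fold lower. Of the 43 TEneg transcripts, 18 came from the large well. Krt14 had 1 transcript in BEneg, against 39 in TEneg, a pooled TEneg over BEneg ratio of 15.6 with a counting interval of 2.64 to 632. The fit without a filter called both lower, with adjusted p = 0.000540 for Krt5 and 0.00539 for Krt14 (edgeR, log2 fold change −3.81, SE 1.0, for Krt14), beside 1.68% of 11431 genes, so that with Krt8 and Krt18 it called 4 of the 7 lower. It called none of the 7 higher, beside 2.35% of genes. In BEneg against TEpos it called Krt8 and Krt18 lower, beside 2.58% of genes, and none of the 7 higher, beside 2.5%. In BEneg against TEneg, neither Krt5 nor Krt14 was called in 2 of 15 alternatives. Without library 1, edgeR gave adjusted p = 0.116 for Krt5 and 0.781 for Krt14, whose change was then −2.21. With limma on means of log values over wells, adjusted p was 0.0606 for Krt5 and 0.115 for Krt14, at −0.69.

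**Figure D3:**
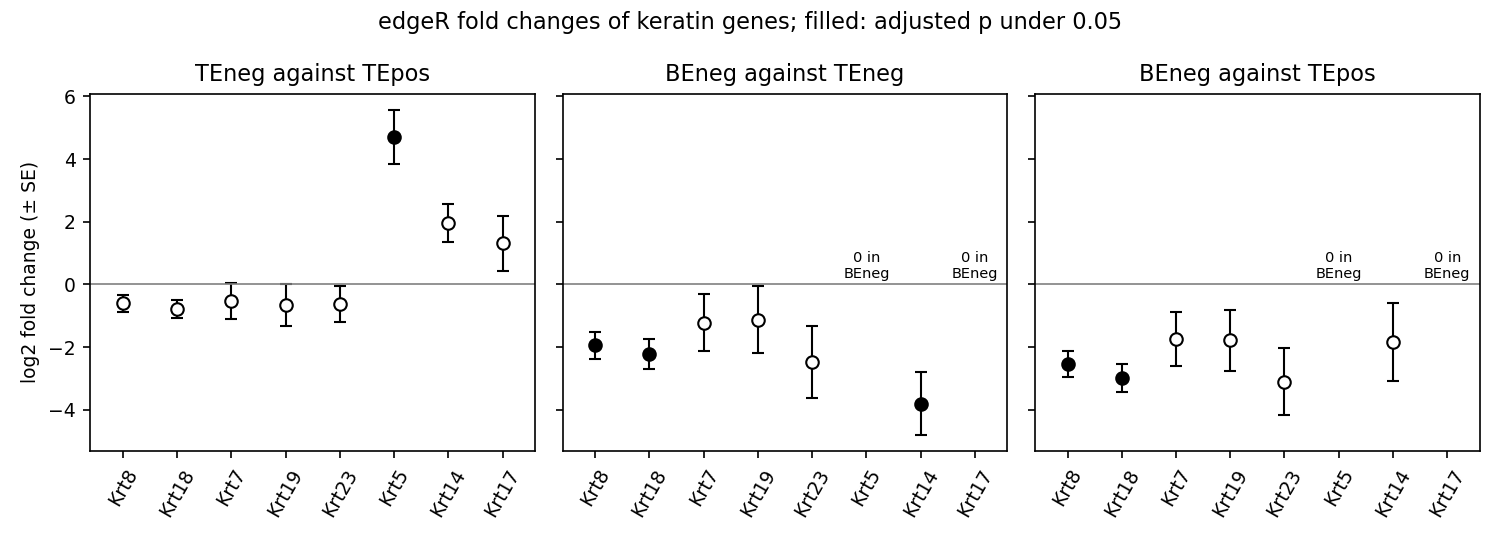
edgeR log2 fold changes ± SE of 8 keratin genes in TEneg against TEpos, BEneg against TEneg and BEneg against TEpos (4 libraries); filled circles have an adjusted p under 0.05. Krt8 and Krt18 come from the fit of 490 genes and the others from the fit of 11431 genes, and Krt5 and Krt17, with no BEneg transcript, have no fold for BEneg.

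Most TEneg wells held Krt8 or Krt18, with or without a basal keratin. Krt5 or Krt14 was found in 10 of 19, 6 of 22, 3 of 14 and 2 of 14 TEneg wells of libraries 1 to 4, against 2 of 18, 2 of 19, 3 of 16 and 0 of 18 TEpos wells. Of these 21 TEneg wells, 19 also had Krt8 or Krt18, against 35 of the 48 other TEneg wells, which were shallower. Of the 21, 9 had Krt5 and Krt14 together and 14 had Acta2, a smooth muscle actin that myoepithelial cells carry. Whether wells with Acta2 held myoepithelial cells was not tested. The 7 TEpos wells all had Krt8 or Krt18, none had both basal chains and 2 had Acta2. Acta2 was found in 10 of the 48 TEneg wells with neither basal keratin, and its level was 15.6 per 10000 in the 21 wells with a basal keratin and 15.1 in the 48 others. The large well had 3.40 per 10000, and without it the other 20 wells with a basal keratin stood at 33.5. Krt8 stood at 6.30 per 10000 in those 20 wells and at 4.78 in the 48 others, and Krt18 at 5.33 and 5.66. Median depth was 1898 and 1426 transcripts. A single well can hold more than a single cell's RNA; doublets were not called.

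**Figure D4:**
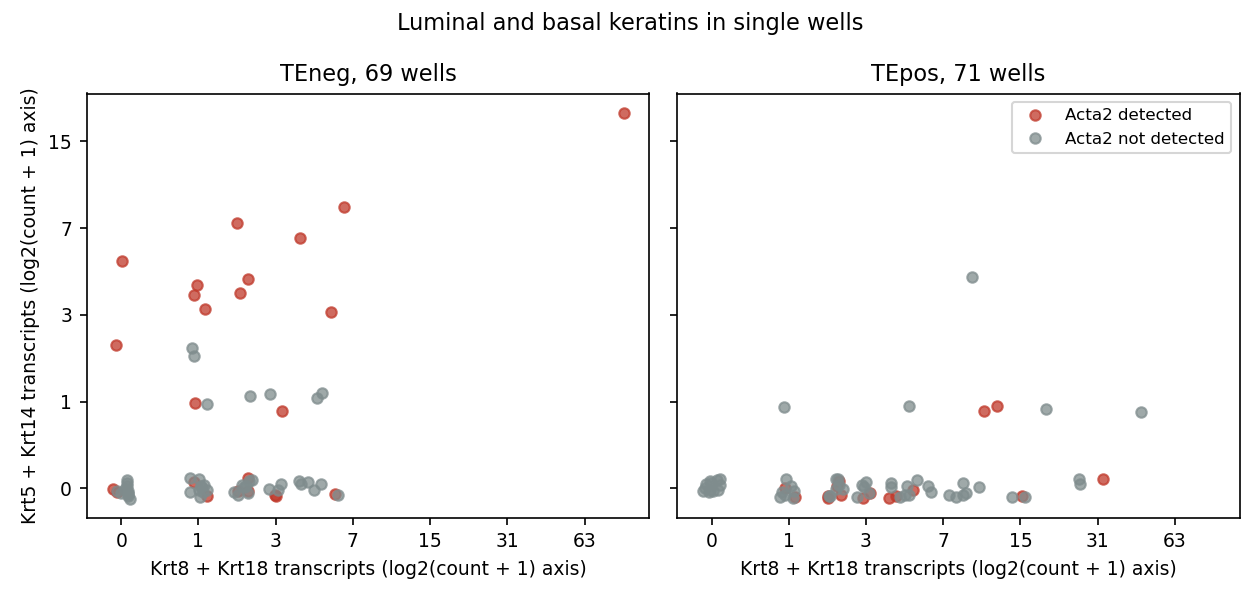
Each point is a well, with the sum of Krt8 and Krt18 transcripts across and the sum of Krt5 and Krt14 transcripts upward (log2(count + 1) axes, small random offsets), in TEneg (left) and TEpos (right); red marks wells with Acta2. Wells with basal keratins numbered 21 of 69 in TEneg and 7 of 71 in TEpos, and the TEneg point far to the right is the large well.

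Genes that go with these keratins were counted from lists. The basal and myoepithelial list without keratins had 2 of 12 genes tested in TEneg against TEpos and both rose, Acta2 by 3.78 (SE 0.43, adjusted p = 2.46e-07) and Sparcl1, a secreted matrix protein also made by vessels, by 1.88 (SE 0.32, adjusted p = 0.000155), both by edgeR, beside 4.69% of all genes called higher. Their median of 2.83 stood beside −0.01 over all genes, and the list summed to 0.194 to 1.38% of transcripts in TEneg libraries, against 0.0657 to 0.0970% in TEpos libraries. Of the luminal and epithelial list, 10 of 23 genes were tested, and 2 fell in TEneg against TEpos: Wfdc18, a small secreted protease-inhibitor-like protein, by 1.13 (adjusted p = 0.00444) and the milk casein Csn3 by 0.81 (adjusted p = 0.0267), beside 1.63% of all genes called lower. In BEneg against TEneg 8 of these 10 fell, beside 17.1% of all genes, with Cldn3, a tight-junction claudin, at −2.58 and Epcam, an epithelial adhesion protein, at −1.83 (SE 0.41, adjusted p = 0.000594). In BEneg against TEpos 8 of 10 fell, beside 21% of all genes, and the median was −2.13, against −0.08 over all genes. None of the 16 genes of keratin partners and desmosomes, the junctions that anchor keratin filaments, passed the filter. They summed to 0.00667% of transcripts in BEpos, 0.0169 to 0.0269% in BEneg, 0.0881 to 0.164% in TEneg and 0.0599 to 0.0908% in TEpos libraries.

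Markers of other cell types were present in both tumour populations. Their ranges over libraries overlapped, but the endothelial and fibroblast medians were higher in TEneg. The endothelial list summed to 0.0350 to 0.154% of transcripts in TEneg libraries (median 0.116%), against 0.00697 to 0.138% in TEpos (median 0.00870%). In that list 13 TEneg wells exceeded every TEpos well. The fibroblast list summed to 0.0457 to 0.123% (median 0.0996%) against 0.0300 to 0.0548% (median 0.0481%). All 8 endothelial and 6 fibroblast genes with a row were above 0 in TEneg, Emcn and Fbln1 were at 0 in TEpos, and none passed the filter. Platelet genes summed to at most 0.0119% in any population, and of the 5 erythroid genes none had a row in experiment (ii). Without the 21 TEneg wells that exceeded every TEpos well in the endothelial, fibroblast or leukocyte list, TEneg against TEpos gave −0.29 for Krt8 (adjusted p = 0.763), −0.80 for Krt18 (adjusted p = 0.249) and 4.92 for Krt5 (adjusted p = 2.42e-05), so the Krt5 difference was as large without them.

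Across the 12 sums of BEneg, TEneg and TEpos libraries, the 5 genes of 490 whose log2 level was most like that of Krt8 were Wfdc18 (Pearson r = 0.967), Krt18 (0.963), Rpl6 (0.934), Rpl27 (0.933) and Rps2 (0.917). For Krt18 they were Krt8 (0.963), Wfdc18 (0.961), Rpl6 (0.957), Rpl27 (0.899) and Epcam (0.896). The 12 points share libraries, depth and the blood to tumour difference, and r is a description.

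Experiment (i), labelled as E-cadherin positive tumour cells, is described on its own, since its tables were made separately and had no second population. Library 1 had 95 usable wells with 438102 transcripts, library 2 had 65 with 69976, and library 3 had 1 usable well with 744 transcripts and is not used. Cdh1 was found in 81 of 95 wells of library 1 and 20 of 65 of library 2, Epcam in 84 and 14, Vim in 8 and 25 and Acta2 in 3 and 23. Leukocyte genes summed to 0.0326% of transcripts in library 1 and 0.417% in library 2, where 18 wells exceeded every TEneg and TEpos well (0.477%) and reached 2.98%, a share also met in blood wells.

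In library 1 all 95 wells had Krt8 or Krt18, and 85 had both. Krt18 stood at 24.1 per 10000 (exact Poisson interval 22.6 to 25.6) and Krt8 at 22.5 (21.1 to 23.9), Krt7 at 10.3, Krt19 at 8.26 and Krt4 at 3.55. In library 2, Krt18 stood at 13.2 (10.7 to 16.3), Krt8 at 6.09 (4.45 to 8.28), Krt7 at 1.87 and Krt19 at 0.860. Here 31 of 65 wells had Krt8 or Krt18, 9 had both, and Krt8 per Krt18 was 0.462 (interval 0.314 to 0.671). A well of 1548 transcripts held 41 of the 93 Krt18 and 14 of the 43 Krt8 transcripts of library 2. Of the 18 wells with high leukocyte shares 7 had Krt8 or Krt18, against 24 of the 47 others, and without them, a choice made after seeing the data, Krt8 stood at 7.90 and Krt18 at 15.9.

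A single well, the deepest, held the most keratin transcripts in library 1. It held 65391 transcripts, 14.9% of the library, and among them 429 Krt8, 339 Krt18, 291 Krt7, 192 Krt19 and 74 Krt4 transcripts. These were 43.6% of the library's Krt8, 32.2% of Krt18, 64.5% of Krt7, 52.99% of Krt19 and 47.3% of Krt4. It held no Krt14. For Krt8 the 429 transcripts were estimated from 208 distinct molecular barcodes, near the limit of what the barcodes can count. Without this well the levels were 14.9 for Krt8, 19.2 for Krt18, 4.31 for Krt7, 4.57 for Krt19 and 2.20 for Krt4, and Krt8 per Krt18 was 0.776 (interval 0.694 to 0.868) in place of 0.933 (0.854 to 1.02).

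Krt4, with 1 transcript in all of experiment (ii), was found in 14 of the 95 wells of library 1. A second well, of 7200 transcripts, held 51 of its 156 transcripts, with 90 Krt8, 52 Krt7, 48 Krt18 and 25 Krt19. Of the 14 wells 13 had Krt7 and 10 had Krt19, against 35 and 32 of the 81 other wells, while 0 of the 14 and 15 of the 81 had Krt14. Median depth was 4390 transcripts in Krt4 wells and 2660 in the others. Krt78 and Krt79, type II keratins named here after their values were seen, had 81 and 53 transcripts in library 1, of which the largest well held 58 and 39. They were found in 4 and 5 of the 14 Krt4 wells and in 5 and 6 of the 81 others.

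Basal keratins with a row stood below Krt8 and Krt18 in libraries 1 and 2 of experiment (i). Krt14 had 30 transcripts in 15 wells of library 1, a level of 0.689 per 10000 (0.462 to 0.978), and each of these wells also had Krt8 or Krt18. In library 2, Krt14 had 8 transcripts in 7 wells and Krt5 had 7 in 5 wells, 1.15 (0.494 to 2.25) and 1.0 (0.402 to 2.06) per 10000. Of the 10 library 2 wells with a basal keratin, 7 had Krt8 or Krt18 and 7 had Acta2. In library 1 none of the 15 had Acta2.

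**Figure D5:**
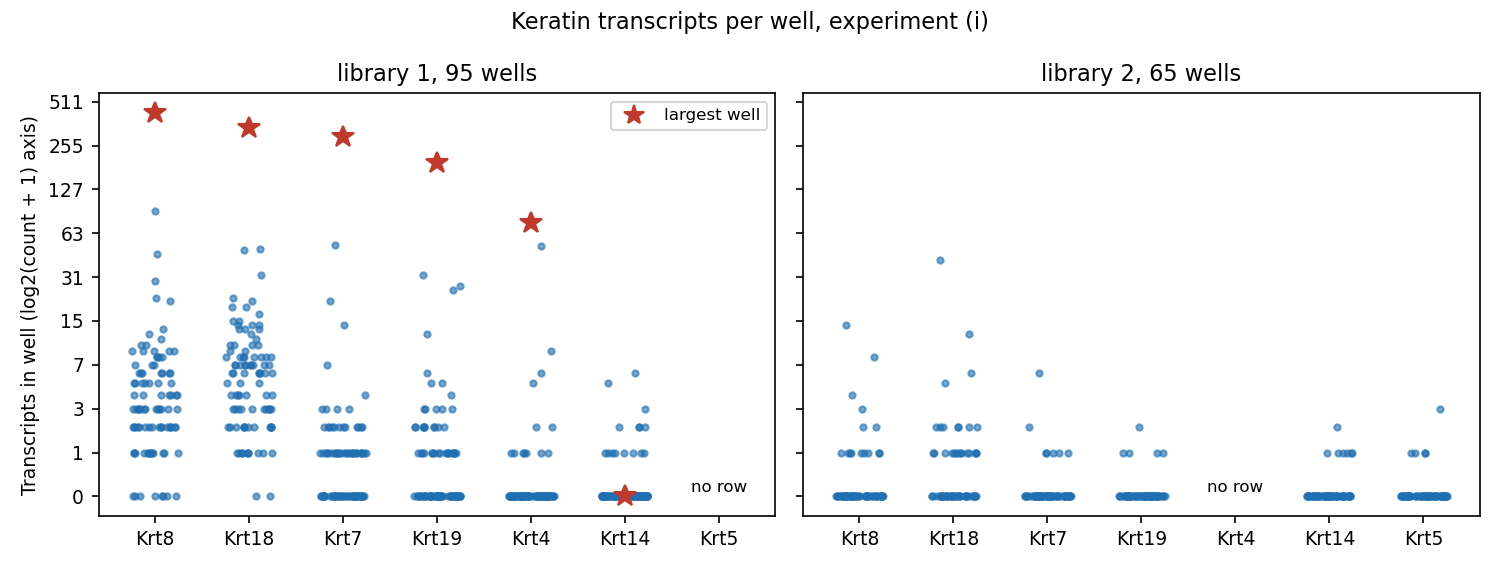
Transcripts per well of the 7 keratins (log2(count + 1) axis) in library 1 (95 wells) and library 2 (65 wells) of experiment (i), each point a well and the star the largest well of library 1. That well was highest for Krt8, Krt18, Krt7, Krt19 and Krt4 and held no Krt14, and Krt4 had no row in library 2.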

How the data were processed

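Single cells were sorted into Trizol and profiled by CEL-seq, which tags the 3′ end of each transcript with a well barcode and a molecular barcode, with paired-end sequencing (NextSeq 500), per the labels' protocols. Reads were aligned with BWA 0.6.2-r126 to mm10, per the submitters' processing notes; how reads became counts was not given in the sources used here. The deposited values are the authors' estimated counts (expected counts) of molecules per gene and well, made from the number of distinct molecular barcodes seen, corrected for barcodes used more than once. The correction was read from the values, which all give whole barcode numbers to within 3.13e-13, and it stretches high values.

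Spike-in rows (73 in experiment (ii)) were left out, and wells under 500 transcripts were dropped. For experiment (ii), values were summed per library and population and rounded, and BEneg, TEneg and TEpos sums of 4 libraries were tested together with edgeR 4.0.16 (TMM scaling, filterByExpr, quasi-likelihood test, Benjamini-Hochberg over 490 genes). The library was a block, because wells of a library were made together; correlations of residuals between populations of a library were 0.0608 to 0.351. Only Krt8 and Krt18 passed the filter, so the other keratins are given from the same fit without a filter (11431 genes). In that fit the spread was in effect shared between genes, so a gene's own spread over the 4 libraries had little or no weight in its p-value. BEpos and experiment (i) have no replicate and only counting intervals (exact Poisson or Clopper-Pearson, 95%). Detection after thinning to 500 transcripts was computed exactly as an expectation. Alternatives used DESeq2 1.42.0 and limma 3.58.1 in R 4.3.3. Sums of the same population in different libraries differed by more than sampling noise (chi-square per degree of freedom 1.61 to 3.14), so none were copies. The edgeR step was tested on counts simulated for the 490 filtered genes. The fit without a filter was not tested in this way. The members, gene lists and marker lists were chosen with earlier results of these data known; named genes were the 7 members, other keratins with at least 20 transcripts, at most 4 called genes per list and comparison, and the 5 genes most like Krt8 and Krt18. Sequences are from RefSeq (GRCm38.p6), found with Python 3.11.15.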

Additional observations from a re-analysis of the deposited data

Results flagged for a closer look

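By Dixon's test at the 95% level, which chance passes in about 1 of 20 sets of 4 libraries, Krt14 in TEneg of library 1 stood apart at 7.05 transcripts per 10000, against 0.730 to 1.65 in the other 3. In 4 further sets of 18 the statistic is at its maximum because the other 3 libraries were at 0, so that rate does not apply and they are no sign of excess. They rest on 1 or 2 transcripts each: Krt19 in BEneg of library 3 (1.69 per 10000), Krt14 in BEneg of library 3 (0.844), Krt5 in TEpos of library 1 (0.168) and Krt4 in TEpos of library 1 (0.168).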

How the results depend on the processing

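In BEneg against TEneg and in BEneg against TEpos, Krt8 and Krt18 stayed lower and called in all 16 alternatives, including the fit without the replicate block (−1.89 and −2.12 in BEneg against TEneg). Their size in BEneg against TEneg ran from −2.86 (wells of at least 1000 transcripts) to −1.09 (log means over wells) for Krt8 and from −3.74 to −1.41 for Krt18, and in BEneg against TEpos from −3.42 to −1.71 and from −4.52 to −2.07. In TEneg against TEpos, Krt8 stayed uncalled in all 16 (−0.96 to −0.29), and Krt18 was called in 4: −1.13 with no filter on low counts, −0.82 without the large TEneg well, −1.06 with a minimum of 20 transcripts over all sums, chosen after seeing the data, and −1.23 without library 2 (range −1.23 to −0.53 over leave-outs). Krt5 in TEneg against TEpos was lost with log means over wells and in no other alternative. In BEneg against TEneg, Krt5 and Krt14 were lost with log means and without library 1. Krt23 in BEneg against TEpos was called with wells of at least 250 transcripts (−3.23), without TEneg wells rich in other markers (−3.24) and with the 20-transcript minimum (−3.04). Genes called in TEneg against TEpos numbered 31, but 99 with no filter, 20 without the replicate block, 17 with wells of at least 1000 transcripts, 55 without the large TEneg well, 114 with the 20-transcript minimum and 19 to 42 with a library left out. In BEneg against TEneg, 201 calls became 461 with no filter, 111 with wells of at least 1000 transcripts, 315 with log means over wells and 533 with the 20-transcript minimum; in BEneg against TEpos, 236 became 581, 125, 374 and 684. Krt7 and Krt17 in TEneg against TEpos, called in no setting, changed sign with library 1 left out (leave-out ranges −1.19 to 0.0139 and −0.21 to 2.10). Shares of wells with both Krt8 and Krt18 were 35.2% in TEneg and 50.6% in TEpos without thinning and at 20.6% in TEneg and 30.1% in TEpos when thinned to 1000 transcripts, a setting that also dropped shallower wells (51 of 69 TEneg and 59 of 71 TEpos wells left). Scaling by total transcripts split BEneg against TEpos into 110 higher and 188 lower calls, against 133 and 103, and moved the median of all genes to −0.48. The 5 keratins other than Krt8 and Krt18 had under 50 transcripts in a population, which limits what their tests can show; the causes of these changes were not tested beyond what each setting removes.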
